A study of Mus musculus with 8 samples.

Results

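The endothelial BMP signal and the hepcidin and iron genes it controls were followed as 10 genes in 8 mouse livers. All 8 mice had undergone bile duct ligation, an operation that stops the outflow of bile and so injures the liver. The genes are the BMP ligands Bmp2 and Bmp6, the BMP target genes Id1 and Smad6, the hepcidin genes Hamp and Hamp2, the transferrin receptor genes Tfr2 and Tfrc, the iron exporter gene Slc40a1 and the ferritin heavy chain gene Fth1. They were chosen by gene name, 10 of the 53816 gene IDs in each table, and all 10 passed the filter of a mean of at least 1 TPM (a level scaled for transcript length and library size) that left 13055 genes for testing. The 4 control mice were wild type and had bile duct ligation. The other 4, also ligated, are labelled as overexpressing Myc in the endothelium, with the genotype given as overexpression in LSEC, the liver sinusoidal endothelial cells. The sources used here do not give the promoter driving Myc, the strain, age or sex of the mice, the time after ligation, or what the replicate numbers share.

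Iron enters the blood through ferroportin, the product of Slc40a1, and hepcidin, a peptide hormone made by hepatocytes, removes ferroportin from the cell surface. Sinusoidal endothelial cells are the main hepatic source of BMP2 and BMP6, which act on hepatocyte receptors, activate SMAD proteins and switch on Hamp together with Id1 and the feedback inhibitor genes Smad6 and Smad7. Interleukin-6 raises Hamp by a separate route through STAT3. Inside cells, iron regulatory proteins bind hairpins in mRNA, which blocks translation of ferritin and ferroportin mRNA and stabilises Tfrc mRNA when iron is short. The comparison asks whether an endothelial change in Myc alters the endothelial signal and its readouts in hepatocytes. These were whole liver samples, so fewer cells of a type and less RNA per cell cannot be told apart.

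The libraries held 5.29 to 6.74 Gb of aligned bases, derived from the deposited coverage and FPKM. Myc stood between 89.2 and 554 TPM in the controls and between 25.6 and 356 TPM in the Myc-labelled libraries, so the groups overlapped for the overexpressed gene itself. The sources used here do not say if the tables would count a transgene as Myc. Every direction below therefore rests on the labels. Xist, the RNA of the inactive X chromosome and a marker of female cells, stood at 32.8 to 43.3 TPM in 5 libraries (control replicates 1, 2 and 4, Myc-labelled replicates 1 and 2). It stood at 0.0454 to 0.0574 TPM in the other 3 (control replicate 3, Myc-labelled replicates 3 and 4). Of 9 further sex-biased liver genes, 6 had values that did not overlap between these sets, against 4.69% of all tested genes. Among the 6 were Cyp2b9 (14.9 to 81.2 against 0.0487 to 3.32 TPM) and Cyp4a12a (0.149 to 1.91 against 11.7 to 19.8 TPM). Sult3a1 and Elovl3, also among the 6, were low, at 2.33 TPM or below in every library. The sets thus hold 3 and 1 control libraries, and 2 and 2 Myc-labelled libraries, and they were formed after the data were seen.

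The sequences behind the hepcidin readout are shown first, because Hamp and Hamp2 are neighbouring copies with different levels. Hamp lies at chr7:30942368-30944032 and Hamp2 at chr7:30922372-30924681, both on the minus strand of mm10. The windows below are 80 bases of the RefSeq promoter sequences (GRCm38.p6, minus strand, 5′ to 3′), at chr7:30944097-30944176 for Hamp and chr7:30924246-30924325 for Hamp2. Capitals mark the element at the place of the BMP-responsive core GGCGCC and then the STAT-type site TTCTTGGAA.
Hamp: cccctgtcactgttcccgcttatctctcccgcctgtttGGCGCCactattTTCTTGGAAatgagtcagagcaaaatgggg
Hamp2: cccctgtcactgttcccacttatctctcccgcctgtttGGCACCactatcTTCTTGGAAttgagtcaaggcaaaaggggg
The windows were identical at 73 of 80 positions. The element read GGCGCC in Hamp, 109 bases before the annotated start, and GGCACC in Hamp2, a G4A difference counted from 1 at the first capital base. The STAT-type site was the same in both. GGCGCC, which is its own reverse complement, occurred in 11.87% of 32851 RefSeq promoter windows, each of 300 bases,, and TTCTTGGAA or its reverse complement TTCCAAGAA in 0.417%. Both occurred together in 7 windows. CACGTG, the E-box that Myc binds, was found in the window of Bmp6, and in 7.15% of all windows. Of the 10 genes, 7 had a window, and GGCGCC was also present in that of Tfrc. A match describes the letters only.

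Iron-responsive hairpins were searched in the untranslated regions of GENCODE M21 transcripts on the transcribed strand, as a C, 5 stem bases, the loop CAGTGN with a last base other than G, and 5 bases that pair with the stem (G with T allowed). Matches were found in 3 of the 10 genes. In the 5′ untranslated region they occurred in 23 of 20899 genes (0.1101%), and in the 3′ untranslated region in 100 of 21028 (0.4756%); these regions differ in length. The sites are shown, with the loop in capitals, because iron regulatory proteins bind hairpins of this form. A match describes the letters only, and control after transcription was not tested.
Fth1, 5′ site, exon 1 of 4, chr19:9982731-9982760, plus strand: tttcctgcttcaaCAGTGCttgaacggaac
Slc40a1, 5′ site, exon 1 of 8, chr1:45925465-45925494, minus strand: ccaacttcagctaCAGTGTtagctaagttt
Tfrc, first of 4 3′ sites, exon 19 of 19, chr16:32631218-32631247, plus strand: taattatcggaagCAGTGCcttccataatt
For these 3 genes the values below are mRNA levels, and the amount of protein was not measured.

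By mean level over the 8 libraries, the order was Hamp, Fth1, Tfr2, Hamp2, Slc40a1, Id1, Tfrc, Smad6, Bmp2 and Bmp6. Hamp averaged 4730 TPM and ranked 37th of all gene IDs, and Bmp6 averaged 3.47 TPM. The ranges of neighbours in this order overlapped except between Fth1 and Tfr2 and between Id1 and Tfrc. How far Bmp6 lies below Bmp2 differs between the deposited columns. Its mean was 58.9% of that of Bmp2 in TPM but 2.66% in coverage (mean read depth per base, 0.242 to 0.693 for Bmp6). For Bmp2 and Hamp, each with 1 annotated transcript, coverage and FPKM stood in the ratio most common in the library, while for Bmp6, with 3 transcripts of 594 to 3593 bases, that ratio was 0.0437 to 0.0455 of it. Between libraries the Bmp6 columns moved together, since this share hardly varied.

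None of the 10 genes passed the test between the groups. In limma, 0 of 10 passed an adjusted p of 0.05, against 0% of the 13055 genes tested, and 0 of 10 had an unadjusted p under 0.05, against 1.86% (1.26% higher and 0.597% lower). The 4 values of one group lay wholly above or below those of the other in 0 of the 10 genes, against 1.26% of tested genes. The log2 differences (Myc-labelled minus control, on the log2(TPM + 1) scale) had a median of -0.08, with 2 estimates above 0 and 8 below. Over all tested genes the median was 0.04, with 7570 above and 5485 below. With libraries rescaled by the median of ratios the unadjusted calls split into 166 higher and 172 lower, and with quantile normalization into 166 and 152, against 165 and 78 here. In the panels of values by library, the open symbols mark the livers with Xist near 0.

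**Figure D1:**
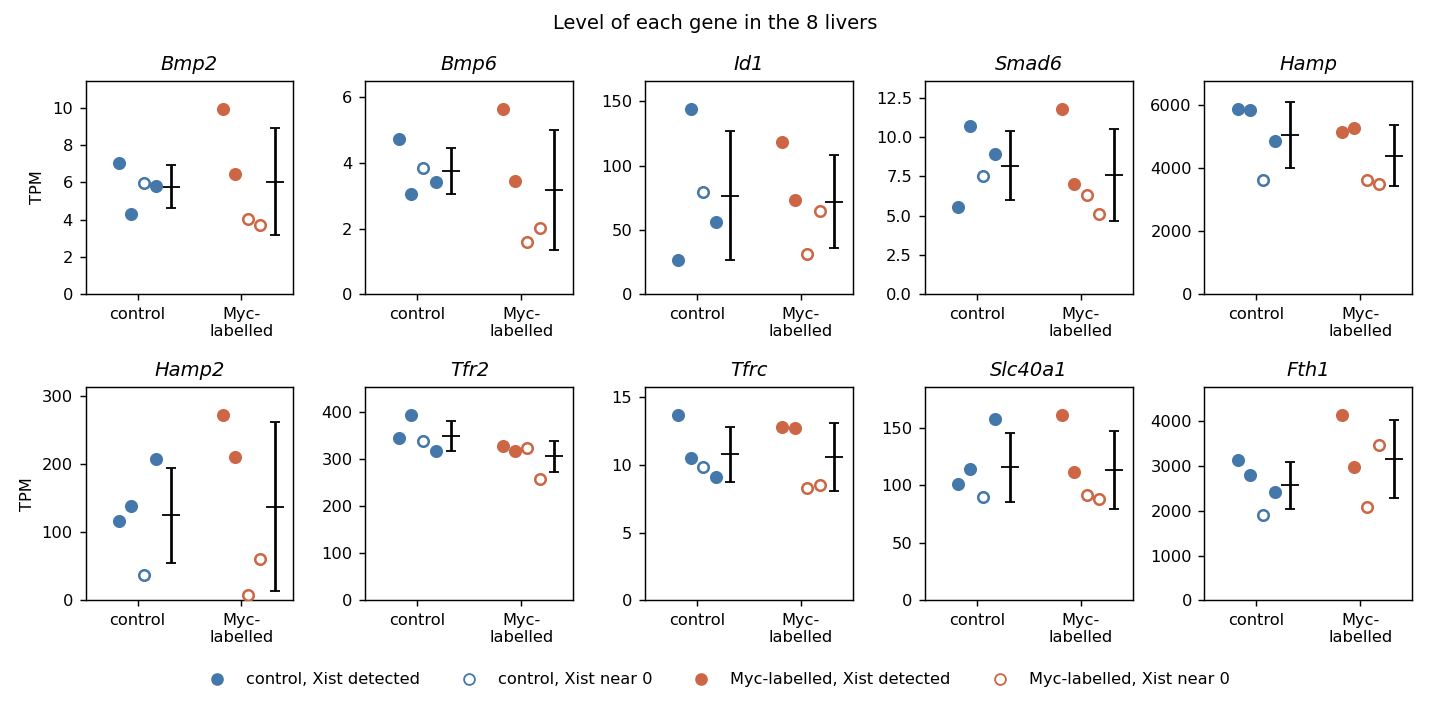
Level of each of the 10 genes in TPM on linear axes from 0, by library; filled symbols are libraries with Xist detected and open symbols those with Xist near 0, and bars show the mean ± SD of 4 libraries. The groups overlap for every gene, while the open symbols lie below all filled ones for Hamp, Hamp2 and Slc40a1.

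Among the ligands, Bmp2 (ENSMUSG00000027358.6, chr2:133552159-133562885, mm10), a BMP made by endothelial cells, had levels of 7.03, 4.28, 5.98 and 5.82 TPM in the controls, in the order of their replicate numbers 1 to 4, which is kept below. The Myc-labelled livers, in the same order, had 9.94, 6.42, 4.05 and 3.69 TPM. Both the highest and the lowest of the 8 values were thus Myc-labelled, around similar group means of 5.78 ± 1.13 and 6.03 ± 2.88 TPM (SD, n = 4). The log2 difference was -0.02 ± 0.27 (SE), and its 95% interval ran from -0.61 to 0.57 (limma adjusted p = 1.0).

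Bmp6 (ENSMUSG00000039004.6, chr13:38345107-38500302), a ligand whose loss gives iron overload in mice, stood at 4.72, 3.06, 3.83 and 3.42 TPM in the controls. In the Myc-labelled livers it stood at 5.65, 3.46, 1.61 and 2.03 TPM. The same liver, Myc-labelled replicate 1, was highest for both ligands, and Myc-labelled replicates 3 and 4 were the lowest pair for both. The means were 3.76 ± 0.713 and 3.19 ± 1.83 TPM, and the log2 difference was -0.27 ± 0.28 with an interval of -0.89 to 0.35 (limma adjusted p = 1.0). The end of Bmp6 overlaps Txndc5 on the opposite strand. Txndc5 stood at 88.2 to 156 TPM, and the sources used here do not say if strand was used, so reads from the shared stretch cannot be told apart.

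Over the 8 libraries Bmp2 and Bmp6 had a Pearson r of 0.92, and 0.88 after each value was centred on the mean of its Xist set. This pair was not among the 16 relations planned, and is given with no test. Of the other tested genes, 0.329% had as high an r with Bmp2, where the median over 13054 genes was 0.30. The 4 genes most like Bmp2 by r, among those with a mean of at least 5 TPM, were Fbxo3, Ptprd, Eci2 and Gypc (r of 0.96 to 0.97, n = 8). For Bmp6 they were Mtg1, Ushbp1, Fam172a and Mmd (r of 0.97 to 0.98).

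Endothelial markers moved with the ligands in part. The mean log2 level of 16 markers, such as Pecam1, Cdh5 and Stab2, relative to the average of the 8 libraries, was -0.48 in Myc-labelled replicate 4 and -0.35 in replicate 3. It was 0.32 in Myc-labelled replicate 1. The highest value, 0.38, was that of control replicate 4, where Bmp2 and Bmp6 were near their averages (0.03 and 0.04). All 16 markers were tested, none was at 0 in any library, and their summed level was 208 to 292 TPM in the controls and 148 to 268 TPM in the Myc-labelled livers. Of the 16, 14 had a lower estimate in the Myc-labelled group, with a median log2 difference of -0.31. An unadjusted limma p under 0.05 was met by 4, while 0 passed adjustment. Over all tested genes 5485 of 13055 estimates were lower, and 1.86% had an unadjusted limma p under 0.05 (0.597% lower). Against this marker median of -0.31, the estimate of Bmp6 was -0.27 and that of Bmp2 was -0.02. The 3 livers with Xist near 0 also had the lowest endothelial, hepatocyte and Kupffer cell marker levels of the 8. Myc-labelled replicate 1, highest for both ligands, also had the highest mean log2 levels of stellate and of cholangiocyte markers, 1.20 and 0.49. The part of cell makeup in the ligand values was not tested.

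**Figure D2:**
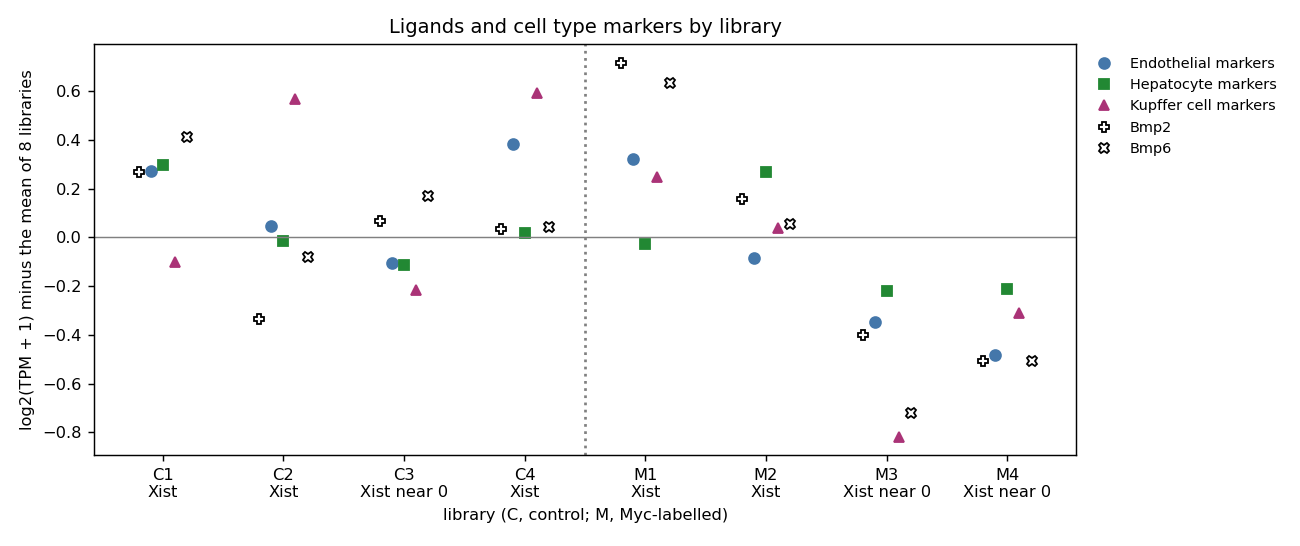
Log2(TPM + 1) minus the mean of the 8 libraries for Bmp2, Bmp6 and the mean of each of 3 marker lists, by library (C, control; M, Myc-labelled; replicates 1 to 4), with the Xist state under each. Myc-labelled replicate 1 has the highest ligand values, and Myc-labelled replicates 3 and 4 the lowest together with low endothelial markers.

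The BMP target Id1 (ENSMUSG00000042745.9, chr2:152736251-152737410), an inhibitor of helix-loop-helix transcription factors, ranged widely among the controls. It stood at 26.5, 144, 79.7 and 56.2 TPM in the controls and at 119, 73.3, 31.0 and 64.9 TPM in the Myc-labelled livers. Its lowest and highest values were both controls. The means were 76.7 ± 49.98 and 72.0 ± 36.1 TPM, and the log2 difference was 0.01 ± 0.54 (interval -1.23 to 1.24; limma adjusted p = 1.0).

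Smad6 (ENSMUSG00000036867.7, chr9:63953076-64022059), which encodes an inhibitory SMAD, stood at 5.53, 10.7, 7.50 and 8.95 TPM in the controls. In the Myc-labelled livers it stood at 11.8, 6.997, 6.32 and 5.12 TPM, spanning the control range at both ends. The log2 difference was -0.12 ± 0.25 (interval -0.68 to 0.43; limma adjusted p = 1.0). Within the fixed list of 12 BMP target genes, 0 of 11 tested passed in either direction, with a median log2 difference of -0.01. Id3, another BMP target, followed the same livers as Id1: it was highest in Myc-labelled replicate 1 (213 TPM) and control replicate 2 (204 TPM) and lowest in Myc-labelled replicate 3 and control replicate 1 (73.2 and 85.6 TPM). Id3 was picked out after its values were seen. The targets closest to the threshold in the list were Smad9 (7.05 ± 1.006 against 4.87 ± 3.09 TPM), Tmprss6, a protease gene that restrains hepcidin (178 ± 35.3 against 147 ± 37.3 TPM), and Smad7 (9.45 ± 4.23 against 12.2 ± 4.94 TPM).

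Hamp (ENSMUSG00000050440.8), the hepcidin gene, stood at 5888, 5847, 3638 and 4876 TPM in the controls and at 5163, 5292, 3641 and 3492 TPM in the Myc-labelled livers. The values fell into 2 separate sets that crossed the groups: 3492 to 3641 TPM in the 3 livers with Xist near 0, and 4876 to 5888 TPM in the 5 with Xist. The means were 5062 ± 1058 and 4397 ± 962 TPM. Their log2 difference was -0.20 ± 0.23, with an interval of -0.71 to 0.30 (limma adjusted p = 1.0). With log2 Xist as a covariate it was -0.07.

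Hamp2 (ENSMUSG00000056978.8) stood at 116, 139, 37.6 and 207 TPM in the controls and at 272, 209, 7.26 and 60.3 TPM in the Myc-labelled livers, a range of 37.4-fold. Again the livers with Xist near 0 were the 3 lowest, at 7.26 to 60.3 TPM against 116 to 272 TPM. The means were 125 ± 69.8 and 137 ± 124 TPM, slightly higher in the Myc-labelled livers, while the difference of log2 values was -0.54 ± 1.18. The 2 scales thus differ in sign, and the interval of -3.35 to 2.27 was the widest of the 10 (limma adjusted p = 1.0). The log2 difference was 0.51 without Myc-labelled replicate 3 and 0.13 with the Xist covariate. Hamp2 is known as a gene expressed more in female than in male mice.

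The Hamp2 level was 0.199% to 5.26% of that of Hamp. Reads can be shared between the copies: the annotated Hamp transcript and the most similar of 3 Hamp2 transcripts were identical at 388 of 420 aligned positions, with a longest identical stretch of 87 bases. The antisense gene Gm44662 spans both and stood at 1.16 to 2.82 TPM. How reads were divided between the copies was not tested.

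Values of Slc40a1 (ENSMUSG00000025993.10, chr1:45908068-45926523), the ferroportin gene, were likewise split by Xist: 88.5 to 91.6 TPM without it and 101.5 to 161 TPM with it. By group they were 101.5, 114, 89.6 and 158 TPM in the controls and 161, 112, 91.6 and 88.5 TPM in the Myc-labelled livers. The log2 difference was -0.04 ± 0.24 (interval -0.57 to 0.49; limma adjusted p = 1.0). Non-overlap of the Xist sets was thus seen in 3 of the 10 genes, all higher with Xist, against 4.69% of tested genes (540 higher with Xist and 72 lower). This is a description with no test, because the sets were formed from the data. The Kupffer cell, a macrophage that recycles red cell iron through ferroportin, had marker sums of 879 to 1797 TPM in the controls and 673 to 1261 TPM in the Myc-labelled livers. All 11 Kupffer cell markers were tested and none was at 0. All 11 estimates were lower in the Myc-labelled group, with a median log2 difference of -0.42. Of these, 0 passed adjustment or an unadjusted limma p under 0.05. Over all tested genes 5485 of 13055 estimates were lower, with a median of 0.04. The part of Kupffer cells in the Slc40a1 values was not tested.

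Tfr2 (ENSMUSG00000029716.13, chr5:137569840-137587481), an iron sensor of hepatocytes, had the narrowest range, with 344, 394, 338 and 318 TPM in the controls and 327, 318, 324 and 258 TPM in the Myc-labelled livers. Myc-labelled replicate 4 was the lowest and stood apart from the other 3 of its group. The log2 difference was -0.19 ± 0.17 (interval -0.56 to 0.19; limma adjusted p = 1.0). The hepatocyte markers, of which 12 of 12 were tested and none was at 0, summed to 70125 to 129007 TPM in the controls and 70431 to 106420 TPM in the Myc-labelled livers. Of the 12, 10 had a lower estimate in the Myc-labelled group, with a median log2 difference of -0.11. An unadjusted limma p under 0.05 was met by 1, and 0 passed adjustment. Over all tested genes 5485 of 13055 estimates were lower, and 1.86% had an unadjusted limma p under 0.05. The part of hepatocytes in the Tfr2 and Hamp values was not tested.

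Tfrc (ENSMUSG00000022797.16, chr16:32608920-32632794), the receptor for cellular iron uptake and the gene with the 3′ hairpins printed above, stood at 13.7, 10.5, 9.81 and 9.11 TPM in the controls. In the Myc-labelled livers it stood at 12.8, 12.7, 8.27 and 8.54 TPM, with replicates 3 and 4 the lowest of the 8. The log2 difference was -0.04 ± 0.20 (interval -0.47 to 0.40; limma adjusted p = 1.0). Red cell precursors are rich in Tfrc. Of 11 erythroid markers, 10 had an ID in the tables and 6 were tested. Slc4a1, Epb42 and Gata1 were among those at 0 in at least 1 library, and the list summed to 360 to 1780 TPM in the controls and 742 to 1596 TPM in the Myc-labelled livers. Of the 6 tested, 5 had a higher estimate in the Myc-labelled group, with a median log2 difference of 0.62. Of these 6, 0 passed adjustment or an unadjusted limma p under 0.05. Over all tested genes 7570 of 13055 estimates were higher, with a median of 0.04. The part of red cell precursors in the Tfrc values was not tested.

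Fth1 (ENSMUSG00000024661.7, chr19:9980598-9985098), the iron-storing ferritin heavy chain with the 5′ hairpin, stood at 3135, 2805, 1898 and 2427 TPM in the controls and at 4136, 2970.3, 2074 and 3468 TPM in the Myc-labelled livers. The groups overlapped, with means of 2566 ± 531 and 3162 ± 868 TPM. The log2 difference of 0.28 ± 0.25 had an interval of -0.26 to 0.83 (limma adjusted p = 1.0). It ran from 0.14 without Myc-labelled replicate 1 to 0.47 without Myc-labelled replicate 3.

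**Figure D3:**
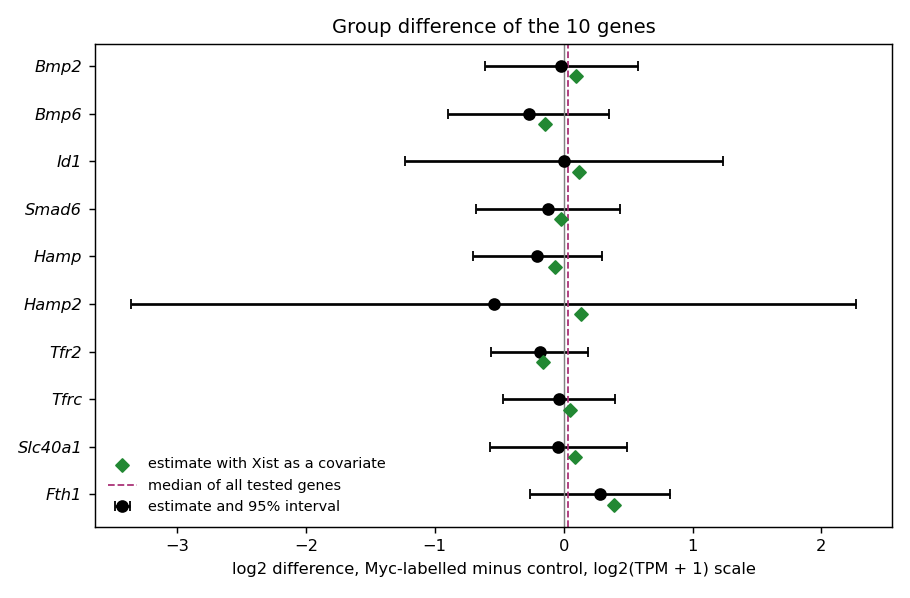
Log2 difference of each gene, Myc-labelled minus control, on the log2(TPM + 1) scale; black points and bars are the limma estimate and its 95% interval, green diamonds the estimate with log2 Xist as a covariate, and the dashed line the median of all tested genes. Every interval includes 0, the widest being that of Hamp2, from -3.35 to 2.27.

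The relation of the ligands to the other 8 genes was computed over all 8 libraries as 16 pairs, with exact two-sided permutation p-values and Benjamini-Hochberg adjustment over the 16. None of the 16 pairs passed an adjusted p of 0.05, by Pearson's r or by Spearman's rho. The highest values were those with Tfrc. For Bmp6 and Tfrc r was 0.82 (exact permutation p = 0.0112, adjusted 0.179) and rho 0.86 (exact permutation p = 0.0107, adjusted 0.0857). For Bmp2 and Tfrc r was 0.78 (exact permutation p = 0.0226, adjusted 0.181) and rho 0.88 (exact permutation p = 0.00724, adjusted 0.0857). Among all tested genes, 3.5% had an r with Bmp6 and 5.04% an r with Bmp2 at least as high as Tfrc.

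Leaving out the 2 libraries farthest from the ligand's median gave r = 0.72 for Bmp6 with Tfrc (without Myc-labelled replicates 1 and 3) and r = 0.71 for Bmp2 with Tfrc (without Myc-labelled replicates 1 and 4). Their exact permutation p-values over 6 libraries were 0.0889 and 0.119. Centred on the group means, r was 0.85 and 0.78. Within Xist sets, by values centred on the mean of each set, r was 0.67 for Bmp6 and 0.64 for Bmp2 (exact permutation p = 0.0708 and 0.133 over 720 rearrangements within sets, adjusted 0.979 for both). The direction of the Tfrc relations was therefore positive in each of these forms, without passing.

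With the hepcidin genes and Slc40a1 every pooled r was positive, and none passed. Positive values were common among all other tested genes, with a median r of 0.31 for Bmp6 and 0.30 for Bmp2. The lower quartiles were 0.016 and 0.025. For Bmp6, r was 0.63 with Hamp, 0.72 with Hamp2 and 0.57 with Slc40a1 (exact permutation p = 0.103, 0.0428 and 0.135, adjusted 0.309, 0.228 and 0.309). For Bmp2, r was 0.50 with Hamp, 0.60 with Hamp2 and 0.62 with Slc40a1 (exact permutation p = 0.210, 0.117 and 0.107, adjusted 0.407, 0.309 and 0.309). Among all tested genes, 17.4%, 9.39% and 23.7% had an r with Bmp6 at least as high as Hamp, Hamp2 and Slc40a1. With Bmp2 the shares were 28.8%, 18.7% and 16.5%. The rho values were 0.43, 0.55 and 0.43 for Bmp6 and 0.57, 0.62 and 0.55 for Bmp2 (adjusted exact permutation p of 0.456 to 0.489). Without the 2 farthest libraries r was 0.54, 0.18 and 0.17 for Bmp6 and 0.32, 0.55 and 0.14 for Bmp2.

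These 3 genes also fall into the 2 separate Xist sets described above, so the pooled values mix differences between and within the sets, and neither set holds the 6 libraries needed for an r of its own. Centred by set, a form chosen after the data were seen, r with Hamp was 0.01 for Bmp6 and -0.22 for Bmp2, and r with Hamp2 was 0.42 and 0.26. With Slc40a1 it was 0.16 and 0.36. None passed (adjusted exact permutation p = 0.979 for each). With 8 libraries in sets of 5 and 3, a p that misses the threshold does not show that the genes are unrelated.

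**Figure D4:**
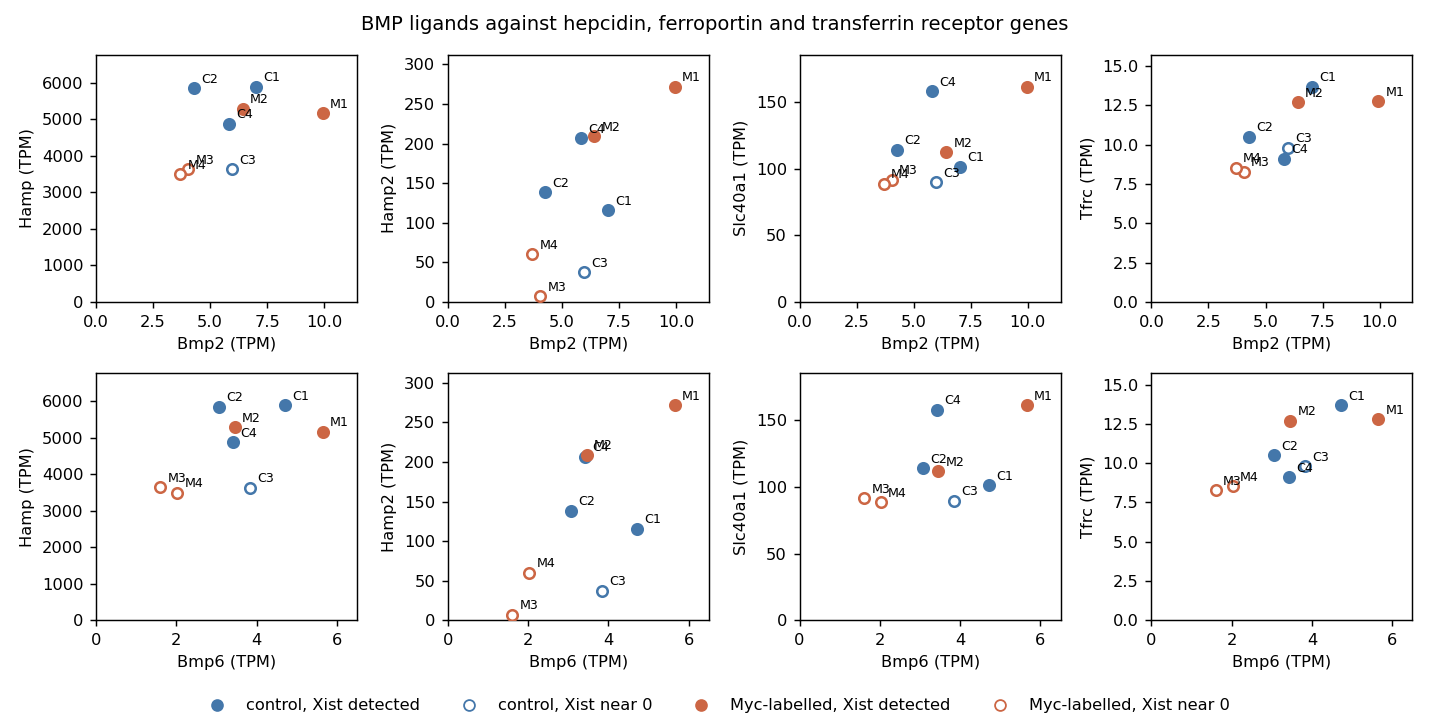
Hamp, Hamp2, Slc40a1 and Tfrc (vertical axes, TPM) against Bmp2 (top) and Bmp6 (bottom, horizontal axes, TPM), 1 point per library on linear axes; C and M name control and Myc-labelled replicates. Open symbols, with Xist near 0, form a low band at 3492 to 3641 TPM in the Hamp panels.

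For the direct BMP targets r was 0.28 (Bmp6) and 0.15 (Bmp2) with Id1, and 0.48 and 0.45 with Smad6 (exact permutation p = 0.498, 0.714, 0.229 and 0.267). The rho values were 0.19 and 0.12 with Id1 and 0.38 and 0.40 with Smad6 (exact permutation p = 0.665, 0.793, 0.360 and 0.327). Among all tested genes, 52.9% had an r with Bmp6 and 64.7% an r with Bmp2 at least as high as Id1. For Smad6 the shares were 32.6% and 34.1%. Without the 2 farthest libraries Id1 gave -0.47 and -0.24, and Smad6 0.10 and -0.43, so the pooled values depended on those libraries. Other livers moved the values as well: without control replicate 1, Bmp6 gave 0.69 with Id1 and 0.76 with Smad6. In control replicate 1 the Bmp6 level of 4.72 TPM was the highest of the controls, and the Id1 level of 26.5 TPM was the lowest of all 8 livers.

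For Fth1 r was 0.41 with each ligand (exact permutation p = 0.318 for Bmp6 and 0.320 for Bmp2) and rho 0.36 and 0.33. Tfr2 gave r of 0.38 and 0.22 (exact permutation p = 0.361 and 0.636), with rho of 0.36 and 0.33. Without the 2 farthest libraries Fth1 gave -0.39 with Bmp6 and 0.38 with Bmp2, and Tfr2 0.61 and -0.37, so the sign changed for Bmp6 with Fth1 and for Bmp2 with Tfr2. The median r over all other tested genes was 0.31 for Bmp6 and 0.30 for Bmp2, so values of this size were common.

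**Figure D5:**
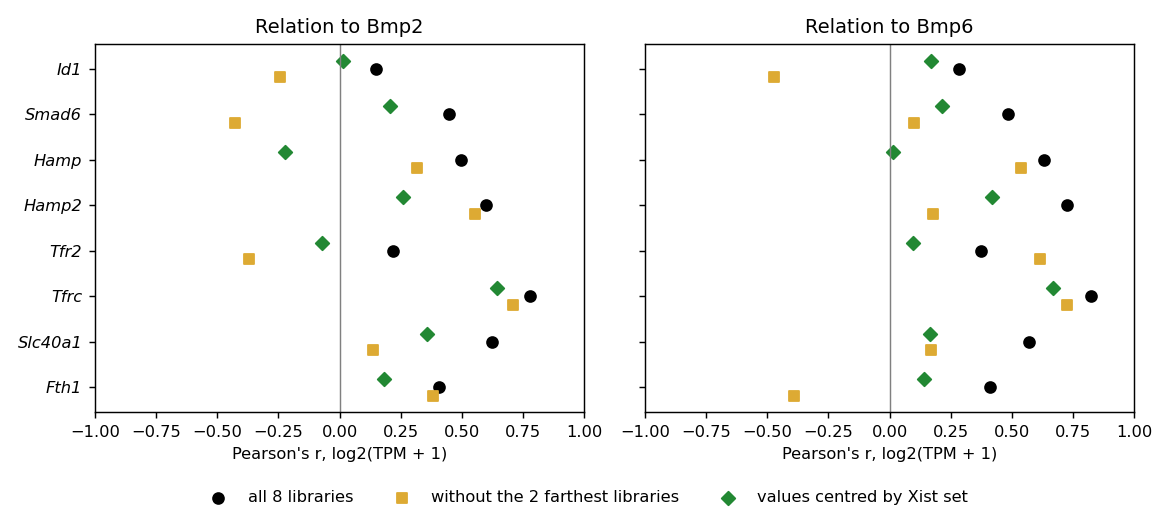
Pearson's r of Bmp2 (left) and Bmp6 (right) with the 8 other genes on log2(TPM + 1): black circles for all 8 libraries, yellow squares without the 2 libraries farthest from the ligand's median, green diamonds for values centred by Xist set. Tfrc lies at 0.64 or above in all 3 forms for both ligands.

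Hamp was also set beside the genes of its inflammatory input. Il6 itself was below the level needed for testing, at 0 to 0.0804 TPM in the controls and 0.0623 to 0.567 TPM in the Myc-labelled livers. Saa1, an acute phase gene driven by interleukin-6, stood at 316 TPM in control replicate 3 and 23611 TPM in Myc-labelled replicate 3. These were the lowest and highest of the 8, while Hamp stood at 3638 and 3641 TPM in these livers. Both livers have Xist near 0, a set in which Hamp spanned only 3492 to 3641 TPM. Other genes of this input differed unevenly between the same livers. Saa2 stood at 155 and 28917 TPM and Lcn2 at 2975 and 6626 TPM. Stat3 stood at 72.9 and 93.1 TPM and Socs3 at 31.64 and 32.05 TPM. In the other livers Saa1 lay between 2347 and 10872 TPM and Hamp between 3492 and 5888 TPM. The part of interleukin-6 in the Hamp values was not tested. Saa1 and these other genes were picked out after their values were seen. The 4 genes most like Hamp by r were Tmem106b, Bnip3, Fcna and Ubxn6 (r of 0.96 to 0.98, n = 8), and each of them also had separate levels in the 2 Xist sets, which these values of r pool.

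The wider pathway was read from 6 lists, in which 0 genes passed in either direction. Of the BMP ligands and antagonists 13 of 17 were tested, with a median log2 difference of -0.02. The antagonist gene Fst, encoding follistatin, stood at 6.86 ± 1.75 against 11.5 ± 3.52 TPM (log2 difference 0.65 ± 0.24, limma adjusted p = 1.0), Bmp4 at 2.80 ± 0.935 against 1.92 ± 0.361 TPM and Gdf2, the gene of BMP9, at 12.6 ± 4.35 against 9.02 ± 4.15 TPM. Of the receptors, co-receptors and SMAD genes 17 of 18 were tested, with a median of -0.01. The endothelial receptor gene Acvrl1 stood at 1.83 ± 0.637 against 3.17 ± 1.31 TPM, and Hjv, the BMP co-receptor hemojuvelin, at 112 ± 10.6 against 91.7 ± 14.0 TPM.

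Among 14 of 16 tested genes of the interleukin-6 and activin input the median log2 difference was 0.11. The receptor gene Il6ra stood at 16.4 ± 2.96 against 12.3 ± 1.61 TPM (log2 difference -0.38 ± 0.17, limma adjusted p = 1.0), Inhbb, which encodes the activin B subunit, at 4.03 ± 0.467 against 7.09 ± 3.94 TPM, and Inhba at 0.863 ± 0.341 against 1.55 ± 0.872 TPM. Of the iron uptake, transport and export genes 18 of 19 were tested, with a median of -0.04. Here Cd163, the macrophage haemoglobin receptor, stood at 25.6 ± 6.90 against 17.3 ± 9.67 TPM, the mitochondrial iron importer Slc25a37 at 11.2 ± 2.34 against 13.4 ± 3.61 TPM and Lrp1 at 122 ± 48.1 against 98.4 ± 14.1 TPM. In the list of ferritin, iron sensing and release 8 of 9 were tested, with a median of 0.05. Ncoa4, the receptor for ferritin breakdown, stood at 104 ± 11.8 against 86.7 ± 24.6 TPM, Aco1, an iron regulatory protein, at 103 ± 18.8 against 90.7 ± 9.05 TPM and the ferritin light chain gene Ftl1 at 4775 ± 470 against 5604 ± 2099 TPM. Fst and Il6ra had unadjusted limma p-values of 0.0228 and 0.0497, and no other gene of the 6 lists was under 0.05. Over all 13055 tested genes, 1.86% had an unadjusted limma p under 0.05.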

How the data were processed

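Liver RNA of 4 control and 4 Myc-labelled mice was sequenced from mRNA libraries, per the labels' protocols. The submitters' processing notes name HISAT2, StringTie and mm10; tool versions, annotation and strand are not stated in them. TPM, the unit analysed, was deposited by the authors, as was FPKM. Coverage is a deposited signal, here not scaled for depth. No read counts were used, so no counting interval is given. Between 10 and 15 repeated gene rows in a table were summed. The coordinates of the 10 genes equalled those of GENCODE M21.

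The limma test (version 3.58.1, in R 4.3.3) used a trended, robust variance and was two-sided, on log2(TPM + 1). It covered 13055 genes whose average reached 1 TPM, and Benjamini-Hochberg adjustment ran over all of them. Pearson's r and Spearman's rho were given exact permutation p-values over 40320 pairings. Both were checked on simulated data. Genes named were all members, up to 3 further genes of each pathway list by smallest p, and the 4 genes most like Bmp2, Bmp6 and Hamp; others are marked as picked after their values were seen. The members and lists were chosen with earlier results of these data known. Alternatives were other pseudocounts, filters and scalings, FPKM, a plain variance model, array weights, a block on replicate number and leave-one-out fits; the Xist covariate, Xist centring and coverage were chosen after seeing the data. The labels give replicates only as numbers, so p-values measure the spread between these samples, which may be technical. Other computations used pandas 2.3.3, numpy 2.4.6 and scipy 1.17.1 in Python 3.11.15. The values of some marker list members are not reported here.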

Additional observations from a re-analysis of the deposited data

Results flagged for a closer look

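In Myc-labelled replicate 4, Tfr2 stood at 258 TPM, far below the other 3 Myc-labelled livers for their spread, and Il6ra in the same library stood at 9.9 TPM, likewise apart from its group. These were 2 of 54 groups of 4 libraries examined, and chance flags about 1 in 20 such groups.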

How the results depend on the processing

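Over 19 alternatives limma called 0 genes, except 1 lower gene with array weights (Gm43305, not a member), and no member passed; 0 of 16 ligand pairs passed in any of 18, of which the replicate block, with a smallest permutation p of 0.125, could not pass. With the replicate block 0 genes were higher and 0 lower. Same-numbered deviations correlated at -0.058 to 0.13, best with their own number in 0 of 4. So few values cannot exclude a pairing of the samples, and what the replicate numbers share is not given. The block turned r of Fth1 to -0.18 with Bmp2 and -0.41 with Bmp6. Unadjusted p under 0.05 was met by 165 higher and 78 lower genes, by 569 and 73 without Myc-labelled replicate 3, and by 89 and 187 without Myc-labelled replicate 1.

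Log2 differences changed sign for Bmp2 with a pseudocount of 5 (0.0047), FPKM (0.010), array weights (0.076) and the Xist covariate (0.098), and for Id1 with a pseudocount of 5 (-0.0009), median-of-ratios scaling (-0.036) and quantile normalization (-0.0087). Array weights, highest for Myc-labelled replicate 2 (3.32), turned Hamp to 0.033, Hamp2 to 0.47, Tfrc to 0.17 and Slc25a37 to -0.14. The Xist covariate turned Hamp2 to 0.13, Tfrc to 0.053 and Slc40a1 to 0.087. Leaving out each library in turn gave -0.26 to 0.15 for Bmp2, -0.41 to 0.39 for Id1, -0.34 to 0.019 for Smad6, -1.17 to 0.51 for Hamp2, -0.13 to 0.075 for Tfrc, -0.22 to 0.12 for Slc40a1 and -0.056 to 0.42 for Ftl1; the sign held for Bmp6 (-0.53 to -0.076), Hamp (-0.35 to -0.10), Tfr2 (-0.23 to -0.11) and Fth1 (0.14 to 0.47). Without Myc-labelled replicate 3, r of Bmp6 with Hamp2 was 0.43.

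For r with Bmp2, Id1 turned to -0.15 (median of ratios), -0.14 (quantile) and -0.24 (without the 2 farthest libraries), Tfr2 to -0.032, -0.0064 and -0.37, and to -0.073 with Xist centring, Smad6 to -0.43 without the 2 farthest, and Hamp to -0.22 with Xist centring. With Bmp6, Id1 turned to -0.47 and Fth1 to -0.39 without the 2 farthest. Leaving out single libraries gave -0.24 to 0.43 (Bmp2 with Id1), -0.37 to 0.62 (Bmp2 with Tfr2), -0.064 to 0.71 (Bmp2 with Fth1), -0.072 to 0.69 (Bmp6 with Id1), 0.72 to 0.83 (Bmp2 with Tfrc) and 0.76 to 0.87 (Bmp6 with Tfrc). The cause of these changes was not tested.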

Other observations

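Several genes of the BMP, hepcidin input and iron lists were at or near 0 in these livers. Erfe, the erythroid hormone gene that lowers hepcidin, was listed between 0 and 0.123 TPM, Nog and Grem1, BMP antagonist genes, between 0 and 0.053 TPM, and Il22, Bmpr1b and Ftmt were listed at 0 in all 8 libraries. Bmp5, another BMP ligand gene, was also highest in Myc-labelled replicate 1, at 6.62 TPM against 1.54 to 3.93 TPM in the other 7 libraries. Hmox1, which frees iron from haem, was highest in control replicate 2 (272 TPM), where Id1 was also highest, and lowest in Myc-labelled replicate 3 (56.0 TPM). Bmp5 and Hmox1 were picked out after their values were seen.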
